A study of Schizosaccharomyces pombe with 4 samples.

Results

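Actin and tubulin genes, together with genes of the contractile ring that divides the cell, were followed on whole-genome arrays of HA-tagged Cdk11 in fission yeast (Schizosaccharomyces pombe). The 8 listed genes were act1 (actin), nda2 and atb2 (both alpha-tubulins), nda3 (beta-tubulin), cdc8 (tropomyosin), cdc3 (profilin), myo2 (myosin II heavy chain) and adf1 (cofilin), and RefSeq gives each of them that product. They were chosen by name, not by their values. For each gene, the probes centred within its coding span or within 500 bp on either side were taken, by laying the ASM294v3 annotation over the array's probe coordinates. On chromosome I this was done only below 3700000 bp, because the coordinates there stopped matching the reference from 3800000 bp onward. This left 6 of the 8 genes, among 4346 coding genes on usable coordinates. The genes for tropomyosin, cdc8, and cofilin, adf1, lie beyond that limit and were not analysed here.

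Cdk11, together with its partner cyclin L, is a protein kinase, and the study set it beside Mediator, which links transcription factors to RNA polymerase II. Every array carried DNA of 1 strain, labelled wild type apart from the HA tag on Cdk11, grown at 32 °C in rich YES medium to mid-log phase. Cells were fixed for 10 min in 3% formaldehyde, and chromatin of about 500 bp was precipitated with the HA.11 antibody (clone 16B12) and amplified by ligation-mediated PCR. The Cy3 channel is labelled as the immunoprecipitate and the Cy5 channel as input DNA of the same strain. There were 2 immunoprecipitations, the first on the arrays called replicates 1 and 3 and the second on those called replicates 2 and 4. Duplicate arrays are technical, so n = 2. No untagged strain, mock precipitate or dye swap was analysed here.

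Actin filaments build the patches, the cables and the contractile ring of the fission yeast cell. Profilin delivers actin to growing filaments, tropomyosin coats them, cofilin severs them, and myosin II pulls on them in the ring. Microtubules are polymers of alpha- and beta-tubulin that form the spindle and the interphase arrays. Genes of this kind are transcribed in every growing cell. A chromatin immunoprecipitation asks whether DNA at such genes is recovered with the tagged protein more or less than DNA elsewhere.

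All values below are log2(Cy3/Cy5) of the spot signals, centred so that the median probe of an array is 0. A negative value is a probe with relatively more Cy5. With the dyes as labelled, this is relatively more input and less immunoprecipitate. The authors' deposited table, however, ran as log2(Cy5/Cy3), so the direction of immunoprecipitate over input is not settled, and each result is given here by its dye. Each array held 42707 genomic probes, of which 0.937 to 16.2% were removed as poor spots. Over all probes, pairs of arrays correlated at r of 0.17 to 0.28, and pairs that shared an immunoprecipitation at 0.21 and 0.27. Over genes, the 2 immunoprecipitations correlated at r = 0.57 for windows and 0.52 for open reading frames (ORFs).

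Before any correction for spot brightness, the actin gene act1 stood apart from the other measured genes. Over its ORF the ratio was -1.77 ± 0.30 (SD, n = 2), which is 3.41-fold more Cy5 than at the median probe, while its upstream flank was at 0.15 ± 0.37 (SD, n = 2). That flank read -0.36, -0.19, 0.73 and -0.04 on replicates 1 to 4, and its sign changed under 7 of 13 alternative processings. After a within-array loess fit, which removes the trend of the ratio with brightness, the act1 ORF was at -0.45 and not called (limma, adjusted p = 0.0751). Without that fit, none of the tubulin, profilin or myosin II genes passed the test over the window, the ORF or a flank. Over the gene window, 0 of the 6 measured genes were called higher in Cy3 and 1, act1, higher in Cy5 (limma, adjusted p at most 0.05 over all 4277 genes tested). Of all genes tested, 1.36% were called higher in Cy3 and 6.66% higher in Cy5, so 1 call among 6 genes says nothing particular about the list. Over the ORF, the counts were again 0 and 1 of 6, against 0.546% and 4.94% of 3847 genes. Without replicate 2 these shares were 0.078% and 2.57%.

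**Figure D1:**
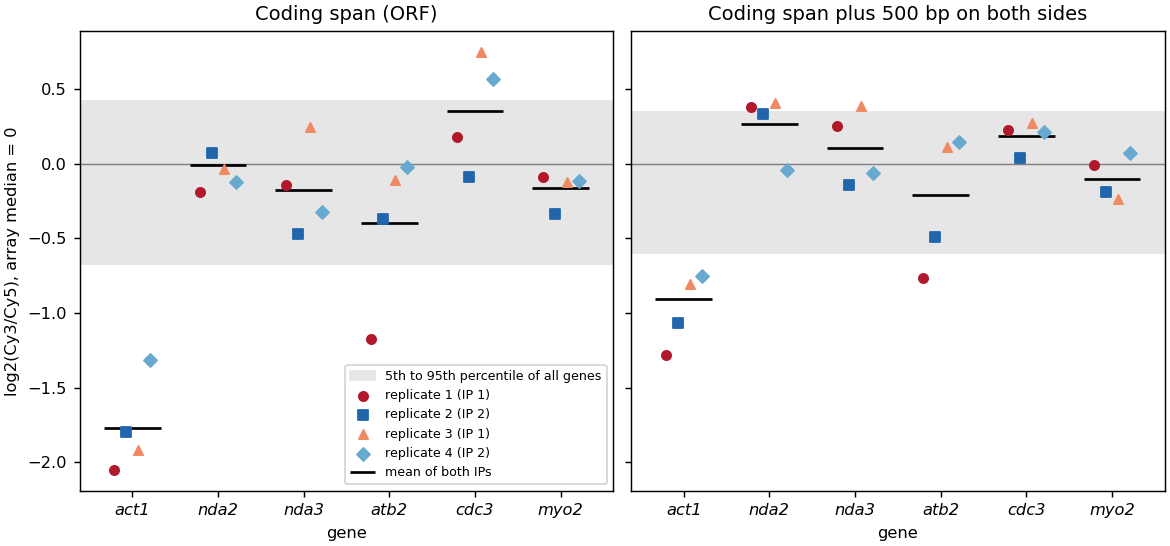
Each point is the mean log2(Cy3/Cy5) of a gene on 1 array, over the ORF (left panel) or over the coding span plus 500 bp on both sides (right panel), with the array median at 0. No correction for brightness was made. Bars are the means of both immunoprecipitations and the grey band runs from the 5th to the 95th percentile of all genes; act1 lies below the band in both panels, and the highest of its ORF values, -1.32, is below the lowest ORF value of any other measured gene, -1.17 at atb2.

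The coding span of act1 (locus SPBC32H8.12C) lies on the minus strand at chrII:1476149-1477276 of ASM294v3 and has no intron. Its 1128 coding bases hold 4 probes. Over these, replicates 1 to 4 gave -2.05, -1.80, -1.91 and -1.32. All 4 arrays were thus more than 1 log2 unit below the array median. The mean of -1.77 had a 95% interval of -2.18 to -1.36 (limma, adjusted p = 5.44e-06) and was the 21st lowest of 3847 ORF values. The interval and p-value use a variance that limma pooled in part over all ORFs (prior degrees of freedom 18.1). They do not rest on the 2 act1 values alone. Over the wider gene window, with 8 probes, the arrays gave -1.28, -1.06, -0.81 and -0.75. The immunoprecipitations were at -0.90 and -0.91 there, with a mean of -0.90 ± 0.0072 (SD, n = 2; limma, adjusted p = 0.000111), the 91st lowest of 4277 genes. Replicate 1 lacked the upstream probe at position -308 from the start codon, which was removed there as a poor spot, so its window value rests on fewer probes than the others. At that probe the first immunoprecipitation is replicate 3 alone, at 1.03, so the SD of 0.0072 depends in part on the missing spot. The 4 arrays spread far more widely than the 2 immunoprecipitations.

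Before any correction for brightness, the departure at act1 was strongest in the gene body. The signals at the 4 coding probes show this before any ratio is formed. Their Cy3 signals ran from 6731 to 10397 over all arrays, against array medians of 5097 to 6341 in Cy3. Their Cy5 signals ran from 10208 to 37324, against array medians of 2889 to 4862 in Cy5. The Cy3 signals were thus modestly above their median and the Cy5 signals far above theirs. At the probe 574 bp into the gene, for example, Cy3 was 7387, 8489, 10213 and 7730 on replicates 1 to 4, and Cy5 was 17167, 34012, 22907 and 18230. At the upstream probe at position -308, Cy3 was 2510, 2545, 3956 and 3993, and Cy5 was 725, 1558, 1171 and 2708. There both channels were below their medians.

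In log ratios, the probe 368 bp into act1 read -3.04, -1.31, -2.02 and -1.14 on replicates 1 to 4. The probe at 574 bp read -1.88, -2.48, -1.90 and -1.55, and the one at 898 bp read -2.01, -2.08, -2.10 and -1.28. The last one, at 1126 bp, read -1.26, -1.32, -1.64 and -1.30. Every one of these values is below -1. As single probes, these 4 were the probes called among the 58 in the windows of the 6 genes, all 4 higher in Cy5 and 0 higher in Cy3 (limma, adjusted p from 0.000192 to 0.0284). Of all 41181 probes tested, 0.216% were called higher in Cy3 and 2.32% higher in Cy5. The called probes share a gene and overlapping DNA fragments, so they are not separate tests of it. Without replicate 3, 1 of the 4 was called, the one at 368 bp. Calls were rarer over the whole array as well, with 0.768% of 35679 probes on the Cy5 side. Without replicate 2, without replicate 4 and with normexp background correction, 3 of the act1 coding probes were called. The Cy5 share of all probes was then 1.44%, 1.66% and 1.46%.

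Inside the window, the ratio outside the coding span was nearer 0. The window probe in the 3' UTR of act1, 1430 bp from the start codon, averaged -0.60 (limma, adjusted p = 0.546). Beyond the window but still in the annotated 3' UTR of 664 bp, the probe at 1648 bp read -0.92, -0.55, -0.57 and -1.46 on replicates 1 to 4, below 0 on all arrays (mean -0.88, adjusted p = 0.288). The upstream probes averaged -0.17 at position -46, in the 5' UTR, then 0.63 at -308 and -0.01 at -478. ORF minus flanks was -2.17 and -1.30 in the 2 immunoprecipitations, a mean of -1.73 ± 0.61 (SD, n = 2; limma, adjusted p = 0.00377), the 3rd lowest of 4199 genes. This measure was called at 1 of the 6 genes, act1, with the body lower, while 0 had the body higher. Over all genes, 0.476% were called with the body lower and 0.286% with the body higher. The call at act1 was lost without replicate 2 (-1.65, limma, adjusted p = 0.558), without replicate 3 (-1.46, adjusted p = 0.211) and with centring on the mode (-1.74, adjusted p = 0.148). Of all genes, 0% were called with the body lower without replicate 2 or with that centring, and 0.0983% without replicate 3. After within-array loess the difference at act1 was -0.20 (adjusted p = 0.604), and in the deposited table with its sign turned it was -0.14 (adjusted p = 0.692), so the contrast of body and flanks was small under both. The body was called lower at 0.548% of all genes after loess and at 0% in the deposited table.

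**Figure D2:**
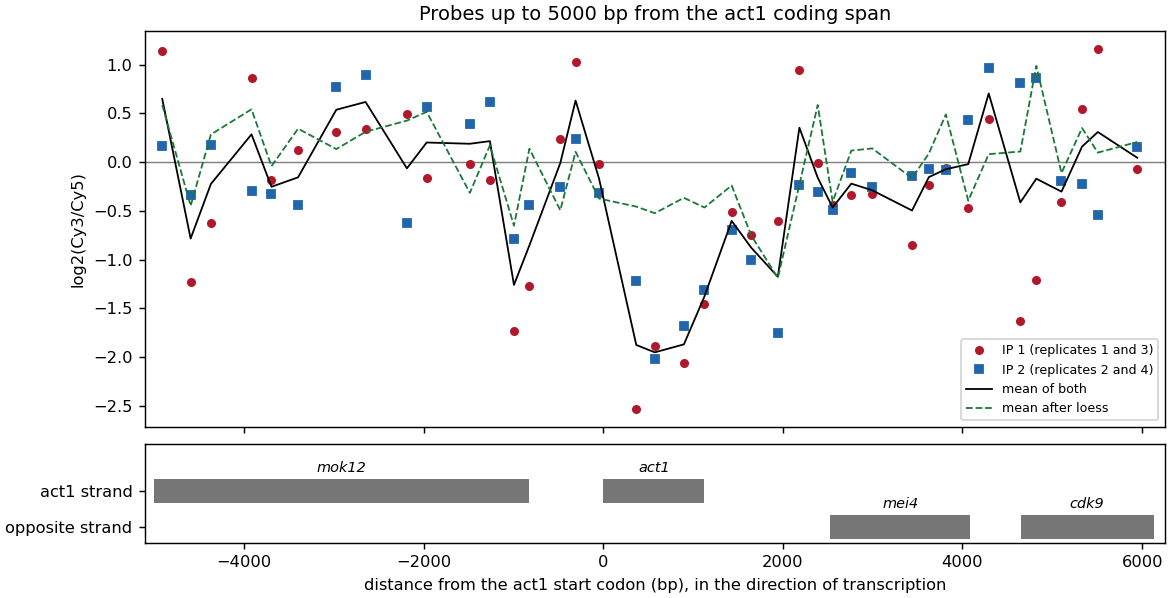
Upper panel: log2(Cy3/Cy5) of each probe up to 5000 bp from the act1 coding span, against its distance from the start codon in the direction of transcription, for both immunoprecipitations (points), their mean (black line) and their mean after within-array loess (green dashed line). Lower panel: coding spans of act1 and its neighbours. The 4 coding probes of act1 average between -1.95 and -1.38 before loess and between -0.52 and -0.37 after it.

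Before loess, the ratio changed between the upstream probes and the coding span of act1. The 250 bases before its annotated transcript start are therefore shown. No probe is centred in them, and the probes at positions -308 and -46 overlap their ends. After loess, the upstream probes at -478, -308 and -46 were at -0.49, 0.11 and -0.37. The coding probes were then between -0.52 and -0.37. The 250 bases were read from the minus strand of ASM294v3 (RefSeq), at chrII:1477334-1477583. They are all in lower case because none of the motifs searched was found in them.
act1 promoter: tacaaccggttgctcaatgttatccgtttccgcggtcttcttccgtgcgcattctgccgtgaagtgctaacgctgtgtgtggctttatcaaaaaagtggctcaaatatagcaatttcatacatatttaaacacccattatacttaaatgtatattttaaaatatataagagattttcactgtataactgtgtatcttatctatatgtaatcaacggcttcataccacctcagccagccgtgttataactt
On both strands, searches were made for TATAAA, for ACGCGT, the MluI cell cycle box, and for CAGTCACA, the HomolD box of many ribosomal protein genes. ACGCGT and CAGTCACA had no match in the promoters of the listed genes, against 2.6% of 5112 promoters of the same length for each. The absence of a match says only that these letters are not in this window.

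Around act1, no neighbouring ORF was called. These neighbours were named for their position after their values had been seen. The next gene downstream is mei4, a meiotic transcription factor on the opposite strand, whose ORF averaged -0.25 (limma, adjusted p = 0.598). The next gene upstream is mok12, a spore wall glucan synthase on the same strand, whose ORF averaged 0.03 over 26 probes. Some single probes around act1 were low as well. The probe at position -994 from the act1 start codon, inside the coding span of mok12 near its 3' end, read -1.74, -0.94, -1.72 and -0.64 (mean -1.26, limma, adjusted p = 0.0585). The probe at position -822, just past that span, read -1.48, -0.93, -1.06 and 0.06 (mean -0.85, adjusted p = 0.309). Between it and the act1 body stood the 3 upstream window probes given above, at -0.01, 0.63 and -0.17. Downstream, past the 3' UTR, the probe at 1944 bp read 0.28, -1.92, -1.49 and -1.58 (mean -1.18, adjusted p = 0.0906). The coding span of cdk9, a kinase gene on the opposite strand, has its nearer end 4650 bp from the act1 start codon, and the probe at 4644 bp read -3.11, 1.42, -0.16 and 0.19, so its arrays disagreed in sign.

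The act1 ORF was both low in ratio and bright, and its departure was smaller after a correction for brightness. Over all probes the ratio correlated with brightness at r of -0.64 to -0.47 on the 4 arrays. The act1 ORF was 1.39 log2 units brighter than the array median, at the 99.6th percentile of all ORFs. Brightness is the mean of both log signals, so it shares the Cy5 signal with the ratio. After a within-array loess fit, which removes the trend of the ratio with brightness, the act1 ORF was at -0.45 (limma, adjusted p = 0.0751) and its window at -0.35 (adjusted p = 0.0328), while ORF minus flanks was -0.20 (adjusted p = 0.604). After loess 11.7% of gene windows and 2.42% of ORFs were called higher in Cy5. In the deposited table with its sign turned, the ORF was at -0.41 (adjusted p = 0.0644) and the window at -0.34 (adjusted p = 0.117). The sign at act1 was therefore kept and the call over the ORF was not. As single probes, the act1 coding probes were not called after loess or in the deposited table. In each, 4 other probes of the 58 were called, 1 downstream of cdc3, 1 in nda3 and 2 in myo2, all higher in Cy5, as were 7.75% and 8.18% of all probes. The part of brightness in the act1 result was not tested further.

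**Figure D3:**
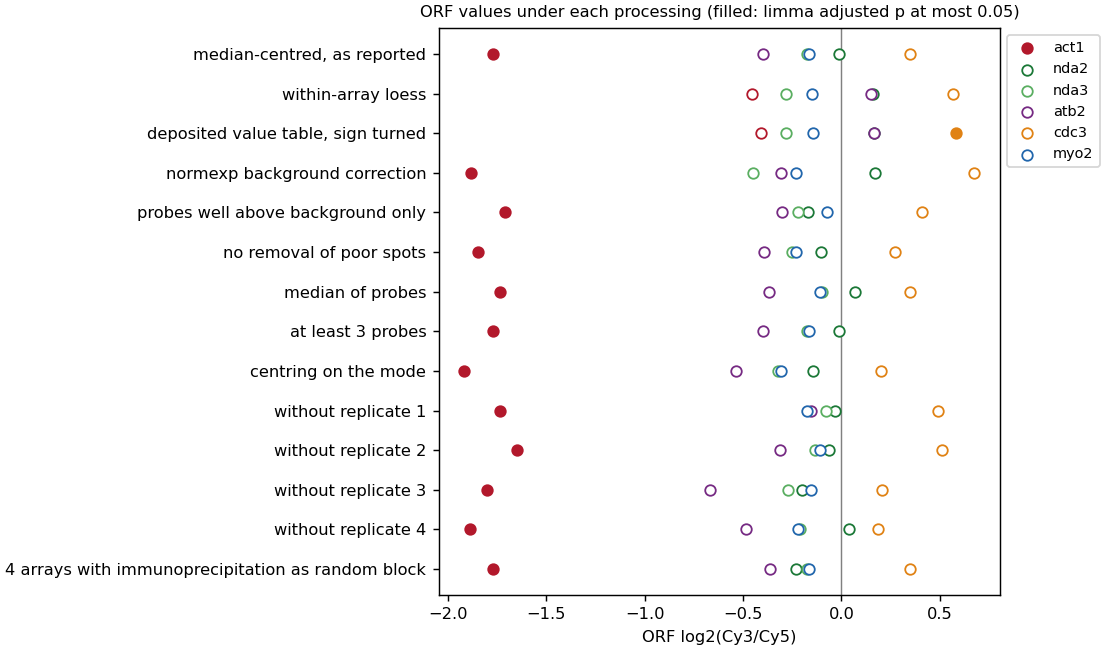
ORF log2(Cy3/Cy5) of the 6 genes (horizontal axis) under the reported processing and each alternative (down the page); filled points have a limma adjusted p of at most 0.05. The act1 value stays between -1.92 and -1.65 except after loess (-0.45) and in the deposited table (-0.41), where it is not called, and cdc3 is called in the deposited table alone (0.58).

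The 3 genes nearest to act1 by Euclidean distance over the 4 arrays' window values came from different kinds of genes. The nearest was rpl8, which encodes a protein of the large ribosomal subunit, at a distance of 0.144 with a window mean of -0.87 (limma, adjusted p = 0.000203). The next was pac2, a regulatory protein, at a distance of 0.223, with -1.47, -1.13, -0.73 and -0.69 on replicates 1 to 4 (adjusted p = 2.2e-05). The phosphate transporter gene pho841 followed at 0.235, with a window mean of -0.91 (adjusted p = 0.000112). Likeness over the window did not extend to the shape along the gene in each case. ORF minus flanks was -1.73 at act1, against -1.24 at pho841 (adjusted p = 0.0491), -0.34 at rpl8 (adjusted p = 0.73) and -0.07 at pac2 (adjusted p = 0.967). The ORF part of the pac2 value rests on 1 probe and that of rpl8 on 3, against 4 at act1 and 5 at pho841.

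The 3 tubulin genes lay inside the spread of all genes. The middle 90% of ORF values ran from -0.67 to 0.42. The alpha-tubulin gene nda2 (SPBC16A3.15C, plus strand, coding span chrII:4268991-4270448 of ASM294v3, 1 intron) is needed for growth. Its ORF read -0.19, 0.07, -0.04 and -0.12 on replicates 1 to 4, on both sides of 0, with a mean of -0.01 ± 0.02 (SD, n = 2; limma, adjusted p = 0.985). The 95% interval was -0.41 to 0.39. Its window value was 0.27 ± 0.21 (SD, n = 2; adjusted p = 0.412). Its probes ran from -0.55, at 918 bp into the gene, to 0.77, at position -132. A non-coding RNA is annotated on the opposite strand across all 9 of its window probes, and DNA arrays cannot tell the strands apart.

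The second alpha-tubulin gene, atb2 (SPBC800.05C, minus strand, chrII:260725-262074, no intron), is dispensable. It came next to act1 in the order of ORF values. Its arrays read -1.17, -0.37, -0.11 and -0.02, a mean of -0.40 ± 0.29 (SD, n = 2; limma, adjusted p = 0.326) with a 95% interval of -0.81 to 0.01. Replicate 1 was far below the other arrays. Much of that came from the last coding probe, 1332 bp from the start codon, which read -2.57, 0.42, -0.65 and 1.14. The probe 356 bp into the gene was below 0 on every array, at -0.57, -0.97, -0.57 and -1.30. The atb2 ORF was at the 91.7th percentile of brightness, and after loess it was at 0.15 (adjusted p = 0.452), so its sign depended on that step. Its neighbours, named for their position after their values had been seen, are the ribosomal protein gene rpl4301 (window -0.47, adjusted p = 0.084) and the ribosome biogenesis gene brx1 (ORF -0.48, adjusted p = 0.256).

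The beta-tubulin gene nda3 (SPBC26H8.07C, minus strand, chrII:3964276-3965924) carries 5 introns, the most among the measured genes. Its ORF read -0.14, -0.47, 0.24 and -0.32, on both sides of 0, with a mean of -0.17 ± 0.32 (SD, n = 2; limma, adjusted p = 0.756) and a 95% interval of -0.59 to 0.24. Its window value was 0.11 ± 0.30 (SD, n = 2; adjusted p = 0.832). The lowest probe, in coding sequence 470 bp from the start codon, was below 0 on all 4 arrays, at -1.60, -0.52, -1.04 and -0.43 (mean -0.90, adjusted p = 0.272). Upstream of the start codon nda3 averaged 0.64 ± 0.59 (SD, n = 2; adjusted p = 0.458), the highest upstream value among the measured genes. The neighbour downstream is sdh8, whose window was called higher in Cy5 (-0.51, adjusted p = 0.043) and which was named after its value had been seen.

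The alpha-tubulin genes are alike in sequence, which can bear on what a probe tells apart. Their coding sequences were identical at 76.0% of 1350 aligned bases, against 55.3% between nda2 and nda3 and 53.7% between atb2 and nda3. The longest identical run of nda2 and atb2 was 29 bases. The most alike stretch of 60 bases, the usual probe length, is shown with its 4 differing bases in capitals, from chrII:4270275-4270334 on the plus strand for nda2 and chrII:260833-260892 on the minus strand for atb2 (ASM294v3, RefSeq).
nda2: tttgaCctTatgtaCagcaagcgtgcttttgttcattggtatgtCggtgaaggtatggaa
atb2: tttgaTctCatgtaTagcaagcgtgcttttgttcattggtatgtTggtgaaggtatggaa
The other 56 bases are the same. By the array coordinates, no window probe of either gene overlaps this stretch. The ORF values of -0.01 at nda2 and -0.40 at atb2 were not called, and their array ranges overlapped. Whether DNA of one gene bound to probes of the other was not tested, since no probe sequences were used here.

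TATAAA, the core of the TATA box, was the commonest of the 3 motifs searched, with a match on either strand in 44.4% of all 5112 promoters. It was found in those of nda2, nda3, cdc3 and adf1, which is 4 of the 8 listed genes. The promoters of the measured genes with a match are shown as 250 bases before the transcript start, with the matches in capitals, from chrII:4268662-4268911 (plus strand), chrII:3965974-3966223 (minus strand) and chrI:2579526-2579775 (minus strand) of ASM294v3 (RefSeq).
nda2 promoter: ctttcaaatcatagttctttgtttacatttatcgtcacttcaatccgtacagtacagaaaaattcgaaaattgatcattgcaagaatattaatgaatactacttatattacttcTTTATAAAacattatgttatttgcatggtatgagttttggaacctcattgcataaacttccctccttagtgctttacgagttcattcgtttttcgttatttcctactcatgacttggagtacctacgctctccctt
nda3 promoter: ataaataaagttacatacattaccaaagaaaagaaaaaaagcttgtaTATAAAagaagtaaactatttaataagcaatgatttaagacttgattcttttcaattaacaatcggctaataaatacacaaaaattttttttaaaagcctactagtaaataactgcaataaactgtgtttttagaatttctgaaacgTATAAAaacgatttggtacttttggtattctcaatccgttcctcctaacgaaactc
cdc3 promoter: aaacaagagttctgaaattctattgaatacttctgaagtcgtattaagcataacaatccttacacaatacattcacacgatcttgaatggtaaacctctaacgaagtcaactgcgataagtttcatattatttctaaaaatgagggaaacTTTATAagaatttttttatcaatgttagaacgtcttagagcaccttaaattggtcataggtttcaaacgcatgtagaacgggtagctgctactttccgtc
In nda2 a pair of matches on opposite strands overlap, at -136 and -134. In nda3 the matches start at -203 and -56 and in cdc3 at -100 from the transcript start.

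The profilin gene cdc3 (SPAC4A8.15C, minus strand, chrI:2578990-2579478 of ASM294v3, 2 introns) is the smallest measured gene, with 2 ORF probes. Its ORF read 0.18, -0.09, 0.75 and 0.57, and 3 of 4 arrays were above 0. The mean of 0.35 ± 0.16 (SD, n = 2; limma, adjusted p = 0.391) was the highest ORF value of the measured genes, with a 95% interval of -0.06 to 0.75. In the deposited table with its sign turned it was 0.58 and was called higher in Cy3 (adjusted p = 0.0179), as were 4.52% of ORFs there. The single probe downstream of cdc3 went the other way, at -0.90, -0.56, -1.02 and -0.47, and all 4 arrays were below 0. Its mean was -0.74 ± 0.32 (SD, n = 2; adjusted p = 0.337). It was called higher in Cy5 after loess (-1.05, adjusted p = 0.027) and in the deposited table (-1.06, adjusted p = 0.00773), as were 8.23% and 12.4% of downstream flanks. Upstream of cdc3, the translation initiation factor gene tif303 averaged -0.49 over its ORF (adjusted p = 0.197), a gene named for its position after its value had been seen.

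The myosin II heavy chain gene myo2 (SPCC645.05C, minus strand, chrIII:1233450-1238030, no intron) is the longest of the listed genes, with 17 ORF probes. Its ORF read -0.09, -0.34, -0.12 and -0.12, all below 0, with a mean of -0.16 ± 0.09 (SD, n = 2; limma, adjusted p = 0.761). The 95% interval was -0.57 to 0.24. Its 20 window probes ran from -0.85 to 0.57, with 10 above and 10 below 0, and none had the same sign on every array that measured it. Non-coding RNAs are annotated on the opposite strand across some of them. The lowest, 3872 bp from the start codon, read -2.27, -0.80, -0.82 and 0.49. The last probe, 4852 bp from the start codon, is shared with the convergent gene nse3, a subunit of the Smc5-6 complex, whose ORF averaged 0.27 (adjusted p = 0.546). Upstream of myo2 lies rgf3, which encodes an activator of the Rho1 GTPase in the ring and averaged -0.13 over its ORF (adjusted p = 0.826).

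**Figure D4:**
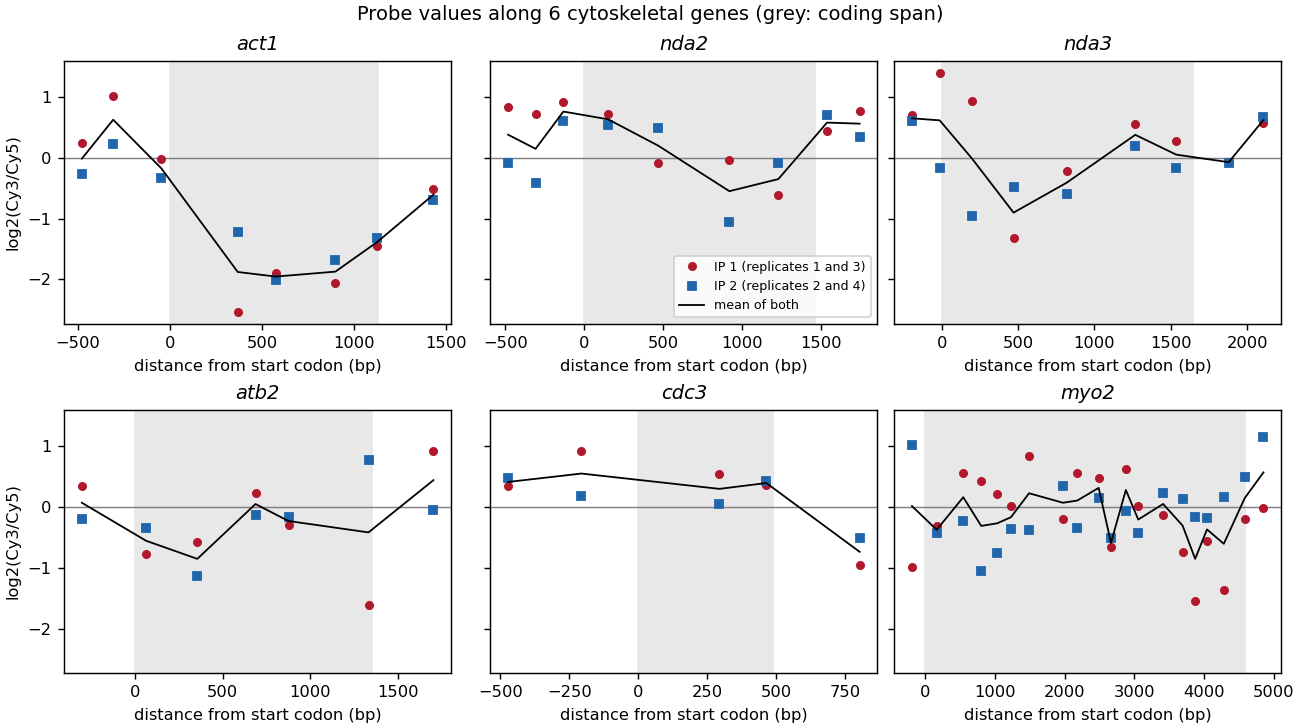
Log2(Cy3/Cy5) of every window probe of the 6 measured genes against its distance from the start codon, with points for each immunoprecipitation, a line for their mean and the coding span in grey. In these values, before loess, the 4 coding probes of act1 lie between -1.95 and -1.38, while no probe mean of the other genes is below -0.90.

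From lowest to highest, the ORF means ran act1, atb2, nda3, myo2, nda2 and cdc3. The range of act1 over the 4 arrays did not meet that of atb2, and every later pair of neighbours in this order overlapped. Over the wider gene window even act1 and atb2 overlapped by a narrow margin, since the highest act1 array was at -0.75 and the lowest atb2 array at -0.76. After loess the order of ORF means was act1, nda3, myo2, atb2, nda2 and cdc3, with 3 below and 3 above 0, so act1 and cdc3 kept the ends and atb2 changed sign.

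The position along the genes was compared with all genes in the same way. Of the 6 genes, 5 had a lower ORF than flanks and 1, cdc3, a higher one, with a median difference of -0.57 against -0.06 for all genes. After loess 3 were lower and 3 higher, as in the deposited table, with medians of -0.04 after loess and -0.0004 in the deposited table, so the count depended on that step. Without loess the difference passed the test at act1 alone. The other values were -0.66 at atb2, -0.63 at nda3, -0.50 at nda2, -0.41 at myo2 and 0.27 at cdc3 (limma, adjusted p from 0.395 to 0.797). The upstream flanks averaged 0.64 at nda3, 0.48 at cdc3, 0.43 at nda2, 0.15 at act1, 0.07 at atb2 and 0.02 at myo2, with a median of 0.29 against 0.11 for all genes. The flanks of atb2 and myo2 rest on 1 probe each, removed on replicate 1, and at myo2 the immunoprecipitations were at -0.99 and 1.02. After loess act1 (-0.25) and atb2 (-0.14) were below 0, and 3 of 6 were in the deposited table. In the median-centred values 0 of 6 were called in either direction. Of all upstream flanks, 0.0724% were called higher in Cy3 and 0.459% higher in Cy5, and at an unadjusted p below 0.05 the count among the 6 stayed 0, against 7.68% and 4.49% of all genes. Of the downstream flanks, 0 of 6 were called by limma, against 0% of all genes higher in Cy3 and 1.46% higher in Cy5, and 1, cdc3, was past an unadjusted threshold of 0.05 on the Cy5 side, as were 10.1% of all downstream flanks.

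Other cytoskeletal genes on 4 lists showed no call over the gene window. At an unadjusted p below 0.05 by limma, 5.63% of all 4277 windows were higher in Cy3 and 12.8% higher in Cy5, and the unadjusted counts on the lists are to be read against these shares. The actin patch and cable list, with the Arp2/3 complex that branches actin filaments, the formin for3 and coat and motor proteins, had 19 of its 24 genes on usable coordinates. None of the 19 was called by limma, and 0 higher in Cy3 and 1 higher in Cy5 had an unadjusted p below 0.05. Their median was 0.02 against -0.01 for all genes, and the values ran from -0.45 at arp3 (limma, adjusted p = 0.0995) to 0.32 at arc4 (adjusted p = 0.32). Of the contractile ring and septin list, 18 of 22 genes were tested and 0 called, with a median of -0.03, and 0 higher in Cy3 and 2 higher in Cy5 at an unadjusted p below 0.05. Its lowest were cdr2, a kinase of the medial cortex, at -0.43 (adjusted p = 0.112) and rng3, a myosin chaperone, at -0.42 (adjusted p = 0.139). The ring formin cdc12 was at -0.06 and the F-BAR protein gene cdc15 at -0.01.

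For microtubules, 22 of 25 listed genes were tested and 0 called, with a median of 0.04. At an unadjusted p below 0.05 by limma there were 1 higher in Cy3 and 0 higher in Cy5, against 5.63% and 12.8% of all windows. The values ran from -0.21 at alp14, a microtubule polymerase, to 0.42 at alp31, a tubulin cofactor (adjusted p = 0.134). The gamma-tubulin gene gtb1 was at -0.14. Of the list for the folding of actin and tubulin, which holds the CCT chaperonin and prefoldin, 13 of 14 genes were tested and 0 called, with a median of -0.05 and none at an unadjusted p below 0.05. It ran from -0.25 at cct8 to 0.29 at pfd2. The genes named from these 4 lists were picked after their values had been seen. The act1 window, at -0.90, was below every value on the 4 lists, of which arp3 was the lowest, but this order did not hold after loess, where act1 was at -0.35 and arp3 at -0.62.

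**Figure D5:**
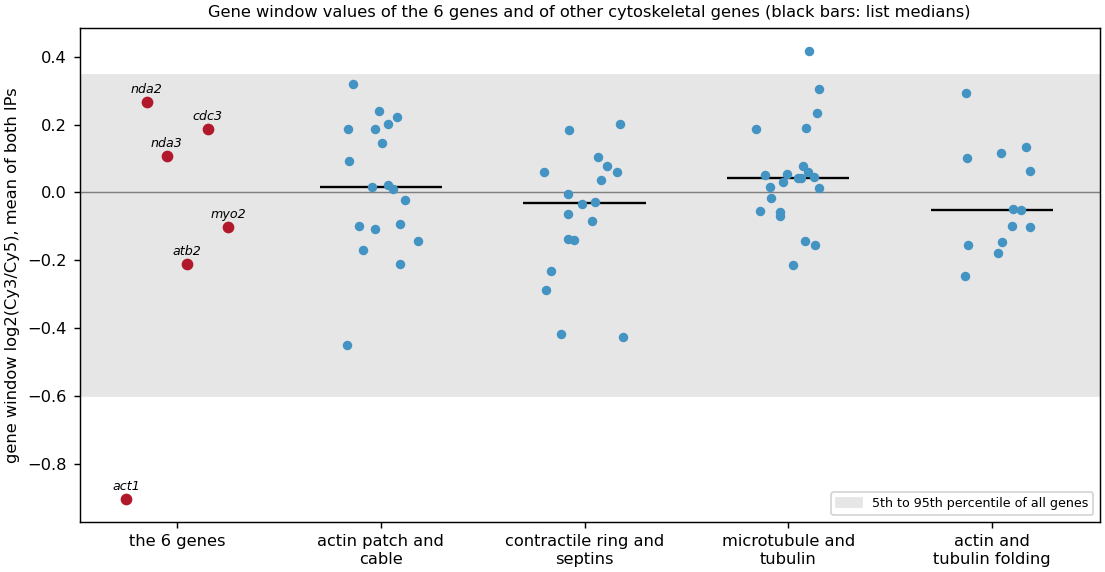
Gene window log2(Cy3/Cy5), mean of both immunoprecipitations, of the 6 measured genes (red) and of the tested genes on 4 lists of other cytoskeletal genes (blue), with list medians as black bars and the 5th to 95th percentile of all genes in grey. The act1 value of -0.90 is the lowest point before loess (after loess arp3, at -0.62, is below act1, at -0.35), and the list medians lie between -0.05 and 0.04.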

How the data were processed

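Each of the 4 arrays has a deposited scanner file in the GenePix format. Per the file headers it holds mean foreground and median local background intensity for Cy3 and Cy5, the percent of pixels above background or saturated, and, as a fraction, the squared correlation of both channels over a spot's pixels. No normalization is stated. The authors' deposited table holds log2 ratios of unstated scale, centring and direction. It matched log2(Cy5/Cy3) after loess with r of 0.989 to 0.998 and slopes of 0.995 to 1.00, and its medians were -0.0191, -0.0176, -0.0307 and -0.0099. Scanner software versions and the genome build are not given in the sources used here.

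Spots marked poor, with a squared pixel correlation of at most 0.3, were removed. Log2(Cy3/Cy5) was centred on each array's median, duplicate arrays were averaged per probe, and probes were averaged per gene (at least 2 in a window or ORF). Each immunoprecipitation entered limma 3.58.1 (R 4.3.3; lmFit and eBayes, two-sided, against 0) once, with Benjamini-Hochberg adjustment over all features and calls at 0.05. The eBayes step draws each variance toward that of all features, with prior degrees of freedom of 35 for windows and 18.1 for ORFs. All limma intervals and p-values therefore lean on other genes, since n = 2 gives little information on a single gene's variance. The procedure was tested on simulated data. Probe coordinates were checked against ASM294v3 in 126 windows by correlating brightness with GC content, and 108 matched. The unmatched ones had a median best shift of 6150 bp. At the measured genes the best shift was between -200 and 100 bp. Coding identity came from pairwise alignment with Biopython 1.88.

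The genes, lists and tests were chosen with earlier results of these data known. The rule for named genes covered all members, genes sharing a window probe with one, list genes past the test, and the 3 nearest to the member whose window value was farthest from 0. Other neighbours and list genes fall outside it and were chosen after their values were seen. The labels call the immunoprecipitations independent without naming separate cultures, and precision is limited by how few arrays there are. Alternatives were loess, the deposited table, normexp background correction, probes above background, no spot removal, probe medians, 250 bp flanks, at least 3 probes, centring on the mode, each array left out, and immunoprecipitation as a random block, a fit that used only probes measured on every array.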

Additional observations from a re-analysis of the deposited data

Results flagged for a closer look

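Among 22 values with 4 arrays each, 2 had an array whose gap to the next was large for the group's range, which chance alone gives in about 1 of 20 groups. At the myo2 ORF, replicate 2 read -0.34 while the other arrays lay between -0.12 and -0.09. At the myo2 downstream flank, replicate 3 read -0.82 while the other arrays lay between 0.62 and 0.90. Neither value was called by limma.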

How the results depend on the processing

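Of 382 values of single genes under the alternatives, 371 kept their side of the threshold, 8 lost a call and 3 gained one, and none reversed a call. Most of these values were not called to begin with, and a change of sign without a call was counted as kept. All 8 losses were at act1, the only gene with calls to lose, and all 3 gains were at cdc3. ORF minus flanks at act1 was called under 8 of 13 alternatives. The act1 ORF ran from -1.92 to -0.41 and was called under 11 of 13 alternatives (limma, adjusted p from 6.64e-17 to 0.0751). Its window ran from -1.45, with 250 bp flanks, to -0.34, and was called under 13 of 14 (adjusted p from 4.32e-12 to 0.117). These p-values lean on variance pooled over all genes, not on act1 alone. Of the 6 genes, the number called higher in Cy5 was 0 over the ORF after loess and in the deposited table, and 0 over the window in the deposited table. Among all genes, 2.42% of ORFs were called higher in Cy5 after loess, and 4.19% of ORFs and 4.3% of windows in the deposited table. Over the ORF 1 was higher in Cy3 in the deposited table (cdc3), and over the downstream flank 1 was higher in Cy5 after loess and in that table (cdc3). For ORF minus flanks, 0 were called after loess, in the deposited table (act1 at -0.14, adjusted p = 0.692) and with centring on the mode (act1 at -1.74, adjusted p = 0.148). Leaving out each array in turn gave 0 to 1 there, with act1 at -1.65 without replicate 2 (adjusted p = 0.558) and -1.46 without replicate 3 (adjusted p = 0.211). Of all genes, 0% were called with the body lower without replicate 2, with centring on the mode and in the deposited table. Called probes of the 6 genes numbered 1 to 4 with each array left out, 1 without replicate 3. Leaving out each array in turn also moved the counts over all genes, to 3 to 24 higher in Cy3 and 99 to 177 higher in Cy5 for ORFs, 0 to 23 and 6 to 37 for upstream flanks, 0 to 28 and 56 to 167 for downstream flanks (167 without replicate 1), and 0 to 89 and 274 to 781 for single probes (274 without replicate 3). The causes were not tested.

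Over all gene windows, 58 were called higher in Cy3 and 285 higher in Cy5. After loess 134 and 501 were called, against 28 and 184 with the authors' deposited values, 8 and 114 with probes above background only (4138 genes tested), and 1 and 178 with centring on the mode. Without spot removal 38 were called higher in Cy3. Leaving out each array in turn gave 0 to 58 higher in Cy3 and 52 to 281 higher in Cy5, with 37 higher in Cy3 without replicate 2, and 0 and 52 without replicate 3. Of the 58 probes, 43 were above background on all arrays and 7 lost a spot on some array, and 80.2 to 97.8% of an array's probes were above background in Cy5, which limits dim probes. No paired analysis was possible because all arrays form 1 group. Slide or scan as a block was not run, since the file headers give neither.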

Other observations

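Beyond the genes described, 2 list genes were called after within-array loess and not before it, and were picked after their values had been seen. After loess, 11.7% of all gene windows and 2.42% of all ORFs were called higher in Cy5, so these calls say nothing particular about the lists. The values of both genes under the other alternatives were not examined. The gene arp3, for a core subunit of the Arp2/3 complex, read -0.68, -0.17, -0.76 and -0.24 over its window on replicates 1 to 4 before loess. After loess it was at -0.62 over the window (limma, adjusted p = 0.000775) and -0.67 over the ORF (adjusted p = 0.0454). The prefoldin gene pfd3, with 2 ORF probes, averaged -0.57 ± 0.07 over its ORF before loess (SD, n = 2; limma, adjusted p = 0.102) and -0.63 after it (adjusted p = 0.0335). Its window was not called after loess (-0.31, adjusted p = 0.0633).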
